A study of Oryza sativa Japonica Group with 21 samples.

Results

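Expansins are small secreted proteins of the plant cell wall, and the values described here are those of the rice genes named EXPA (alpha-expansins), EXPB (beta-expansins) and EXLA (expansin-like A). A gene was taken where its symbol or a synonym in the gene annotation began with EXPA, EXPB or EXLA and a number, with or without the prefix Os. The annotation held 48 such genes, 29 EXPA, 15 EXPB and 4 EXLA, and 29 of them had a probe set of their own on the array. EXPB4 was left out, because its probe set shares a cluster number with that of the heat shock gene HSP26.2 and it is in doubt which of the 2 it measures. That left 28 measured expansin genes, 14 EXPA, 10 EXPB and 4 EXLA, of 17905 genes in all. The 15 EXPA and 5 EXPB genes with no probe set used were not analysed here.

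Alpha-expansins loosen the wall at acid pH without cutting its polymers, by weakening the contacts of cellulose with xyloglucan, so that a cell under turgor can stretch. Beta-expansins are more numerous in grasses than in most other flowering plants, act on the arabinoxylan-rich grass wall, and include the major pollen allergens of grasses. The EXLA proteins carry both expansin domains, but no wall-loosening activity has been settled for them. Growing organs such as leaf bases, internodes and stamens use different sets of family members.

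RNA of rice (Oryza sativa japonica, Zhonghua 15) was hybridized to 21 Affymetrix rice arrays in 7 groups of 3 biological replicates. There were 5 stamen groups, from stages 2, 3, 4, 5 and 6 of stamen development, cut out of spikelets under a microscope. For each panicle 1 longitudinal part was embedded and sectioned to check the stage, and the other gave the RNA. The leaf samples, taken by the submitters as controls on the ground that stamens and leaves are homologous, were the just-expanded leaf 3 and the primordium of leaf 3, a primordium being dissected from the embryo of a seed soaked for 2 to 3 days. The labels name no transgene or mutation, and plants were kept at 30 ± 2 °C under days of 11 h and nights of 13 h, some in pots in a growth chamber and some in the field. Labelled RNA was made from 50 to 300 ng of total RNA by a 2-cycle amplification. All values below are log2 values per probe set as deposited, so a difference of 1 is 2-fold, and a level of 1 gene cannot be set against that of another. The values come with no detection call, and low ones hold background signal, so where a group mean lies under 5 the log2 difference of the deposited values is given with no fold, and the true difference may be larger. Group means near the array medians of 5.82 to 5.89 may hold background too, so a fold set against such a mean may also be too small.

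The labelled organs carried their floral, green-leaf and embryo markers. All 5 floral MADS-box markers were higher in stamens than in both leaf samples. The name MADS2 matched 2 genes, and it was not settled which of them the brightest probe set, used here, measures. That probe set averaged 9.22 in leaf primordium. Stamens had all 4 green-leaf markers lower than expanded leaf did, but 2 of them, RBCS and CAB2R, higher than leaf primordium did (2.13 and 1.70). Both embryo markers were high in leaf primordium alone, with a mean per array of 6.37 to 7.13 in stamens and 6.40 to 7.37 in expanded leaf, against 13.34 to 13.56 in leaf primordium. Their part in the expansin differences from leaf primordium was not tested. The 2 carpel markers averaged 6.53 to 7.21 in stamens, 6.50 to 6.68 in expanded leaf and 6.94 to 7.12 in leaf primordium. The mean of the 3 late pollen and tapetum markers was at most 4.99 in any stamen array, while 1 of them, CYP703A3, reached 6.63. That mean ran from 3.89 in stamens, and was 4.16 to 4.40 in leaf primordium and 3.62 to 3.73 in expanded leaf. CP1, of the same list, averaged 5.71 in leaf primordium and at most 5.27 in a stamen stage. Expanded leaf replicate 3 stood apart from the other 2 arrays of its group in the mean of the floral markers and in control probe sets. Its floral marker mean was 7.70 against 6.15 to 6.30, with MADS58 at 10.04 against 5.76 and 6.29. MADS2 (7.46 against 5.87 and 5.60), MADS4 (7.16 against 6.55 and 6.06) and MADS16 (8.68 against 8.21 and 7.52) were higher by less. MADS3 was not raised (5.15 against 5.14 and 5.27). Its mean 3′ minus 5′ difference of the actin and GAPDH control probe sets, which grows as RNA is shortened, was 3.37 against 1.73 to 1.96. The stage 2 arrays were similar to it in that measure, at 3.19 to 3.41, while stages 3 to 6 had 1.27 to 2.69 and leaf primordium 1.64 to 1.90. Arrays of 1 group correlated at 0.931 to 0.949 for expanded leaf, 0.981 to 0.995 for leaf primordium and 0.984 to 0.995 for the stamen stages. Expanded leaf replicate 2 stood apart in other genes, with CAB2R at 9.51 against 13.55 and 12.24. The aquaporin gene PIP2;7 read 7.69 there against 12.19 and 11.84. Each expanded leaf array correlated at 0.946 to 0.949 with the nearest of its group.

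Among the members called different by the rule below, a set was high in stamens and low in expanded leaf, led by EXPA7, EXPA5, EXPA16 and EXPB17. A smaller set, led by EXPB3, EXPA2 and EXLA1, had the opposite pattern. A member was called different in a comparison at an adjusted p under 0.05 by limma, with Benjamini-Hochberg adjustment over all 57258 probe sets tested, and at least a 2-fold difference. Each SE and p-value rests on a spread pooled over the 7 groups. For genes whose expanded leaf arrays varied most, the spread of that group is therefore understated. Between the mean of the 5 stamen stages and expanded leaf, 10 members were called higher and 5 lower in stamens, while 13 were not called. Of all probe sets, 13.3% were called higher and 9.97% lower in that comparison. Between stamens and leaf primordium, 3 members were called higher and 6 lower and 19 were not called, where 7.59% of all probe sets were called higher and 6.71% lower. Between expanded leaf and leaf primordium, 3 were called higher and 10 lower in expanded leaf and 15 were not called, where 9.84% of all probe sets were called higher and 12.8% lower. Many probe sets carry no named gene, and over 1 probe set for each of the 17905 genes the shares were larger: 26% higher and 19.5% lower for stamens against expanded leaf, 15.1% and 12.2% for stamens against leaf primordium, and 19.4% and 24.4% for expanded leaf against leaf primordium. Whether the member counts differ from these shares was not tested. The median difference of all 28 members between stamens and expanded leaf was −0.01, beside −0.08 over all probe sets and 0.10 over genes. These 3 comparisons share arrays, so their counts are not independent of each other.

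**Figure D1:**
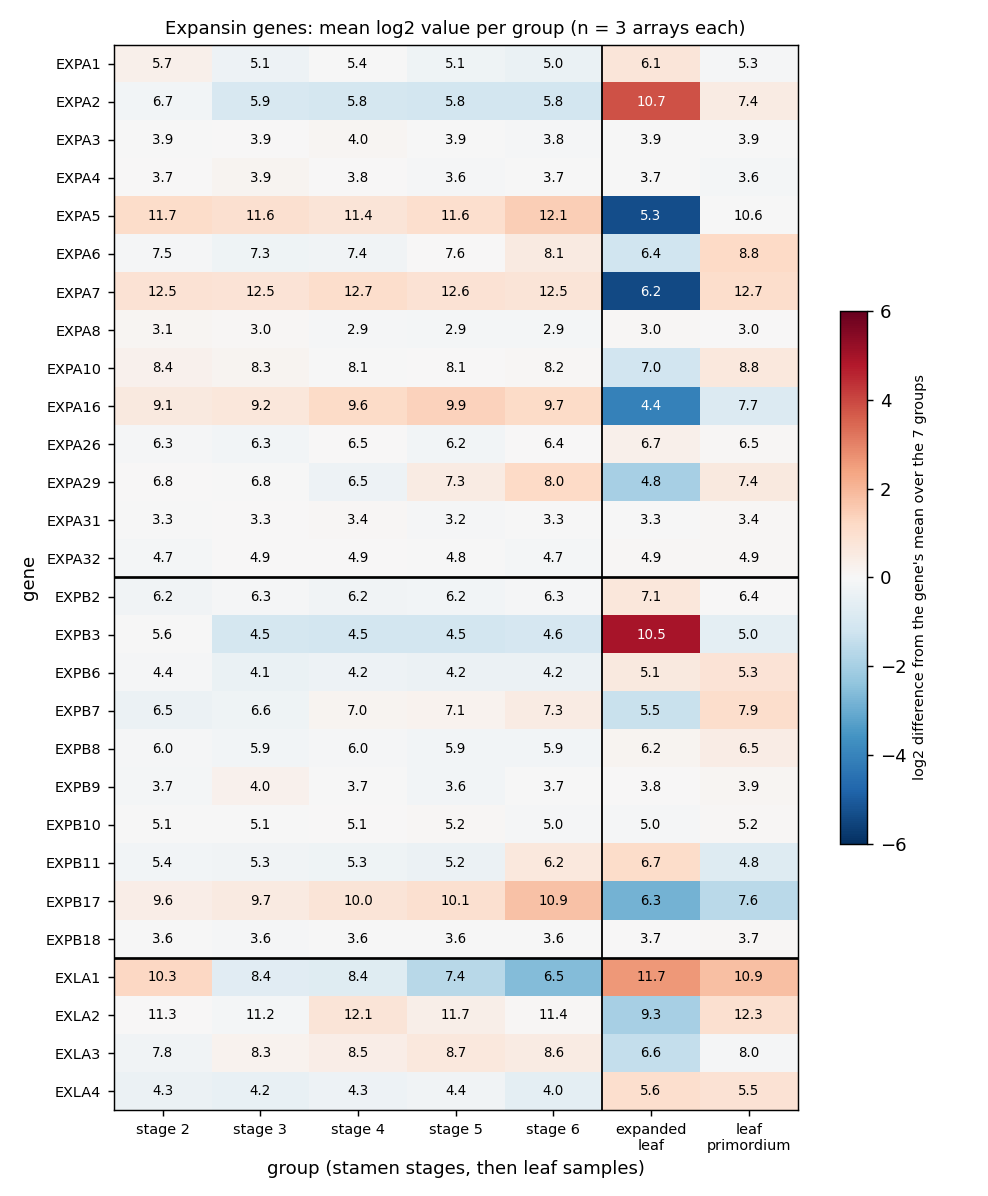
Mean log2 value (numbers) of the 28 expansin genes in the 5 stamen stages, expanded leaf and leaf primordium (n = 3 arrays each), coloured by the difference from the gene's own mean over the 7 groups, with lines between the EXPA, EXPB and EXLA genes. EXPA7, EXPA5 and EXPA16 are lowest in expanded leaf and EXPA2 and EXPB3 highest there, while EXLA1 declines over the stages.

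The alpha and beta members both held genes of each kind. Of the 14 EXPA genes, 6 were called higher and 1 lower in stamens than in expanded leaf, and of the 10 EXPB genes 2 were called higher and 2 lower; the difference between those splits was not tested. The median difference was 0.03 for EXPA and −0.17 for EXPB on the log2 scale, beside −0.08 over all probe sets and 0.10 over genes. Against leaf primordium, 2 EXPA genes were called higher and 2 lower, and 1 EXPB gene was called higher and 2 lower. Here the medians were −0.11 and −0.13, beside −0.03 over all probe sets and 0.04 over genes. Between expanded leaf and leaf primordium, 1 EXPA gene was called higher and 6 lower, and 2 EXPB genes were called higher and 2 lower, with medians of −0.07 and −0.10 beside 0.04 over all probe sets and −0.07 over genes. In these bulk samples, fewer cells of a type and less RNA per cell cannot be told apart.

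**Figure D2:**
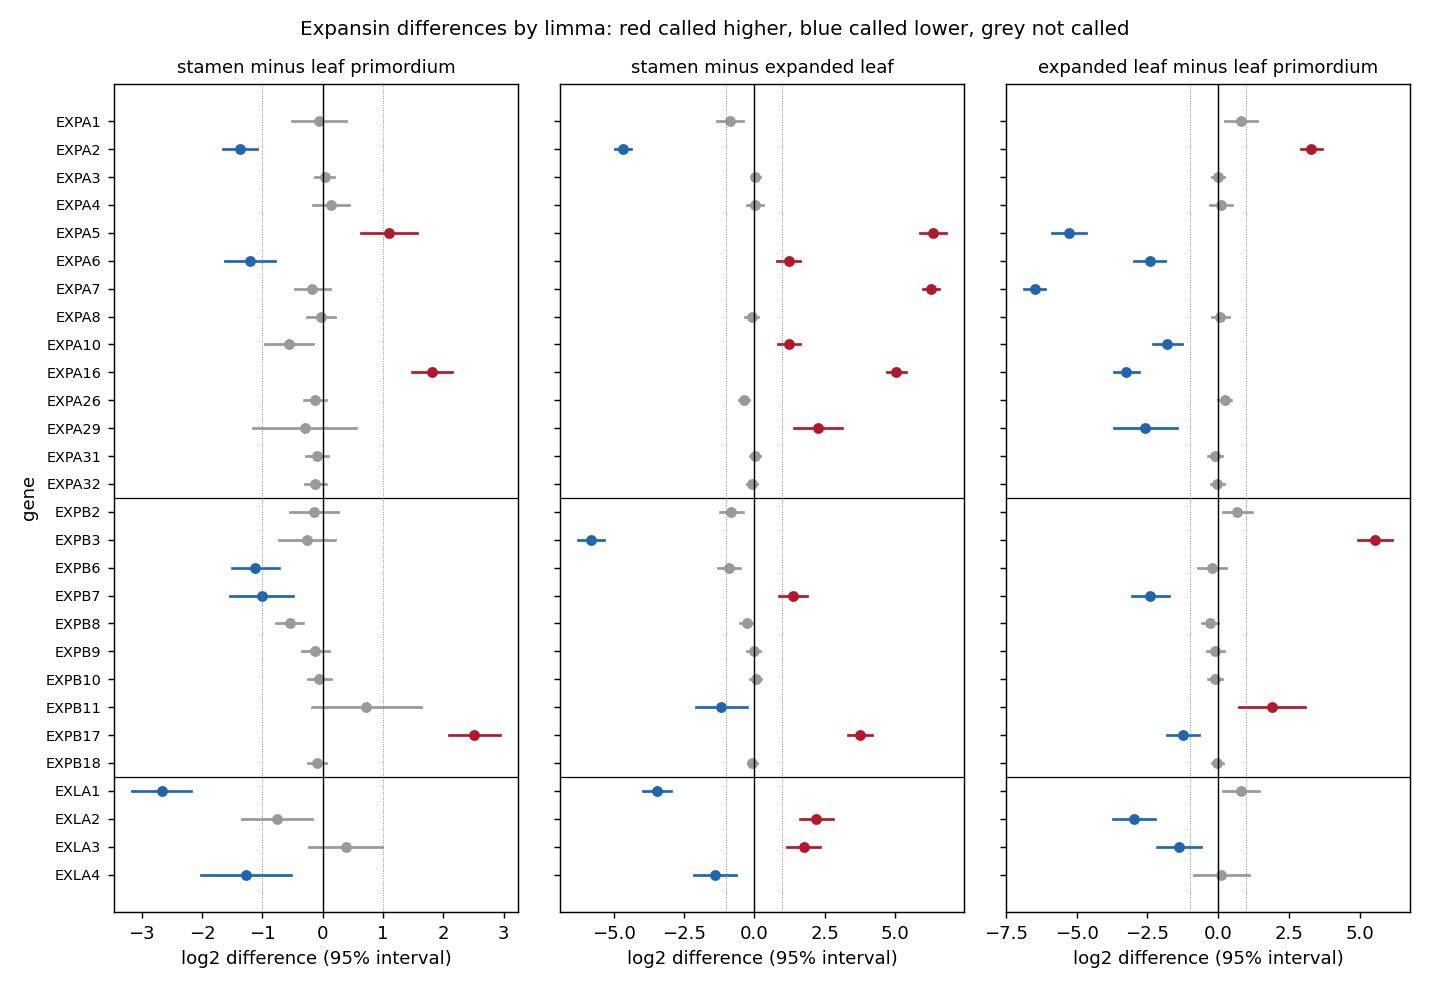
Log2 difference of each expansin gene with its 95% interval from limma, for stamen (mean of stages 2 to 6) minus leaf primordium, stamen minus expanded leaf, and expanded leaf minus leaf primordium, on a scale of its own in each panel. Red genes were called higher, blue genes lower and grey genes not called, and dotted lines mark a 2-fold difference. EXPA5 and EXPA7 lie above 6 for stamen minus expanded leaf and EXPB3 lies at −5.81.

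EXPA7, an alpha-expansin, was the member with the widest difference between the leaf samples. Its 15 stamen arrays lay between 12.19 and 12.79 with a median of 12.60, its expanded leaf arrays read 6.23, 5.96 and 6.55, and its leaf primordium arrays 12.64, 12.60 and 12.93. Every stamen array and every leaf primordium array was thus far above every expanded leaf array, and the stamen and leaf primordium arrays overlapped. The level was 79-fold higher in stamens than in expanded leaf (log2 difference 6.30, SE 0.14, adjusted p = 2.2e-16 by limma) and 89.2-fold lower in expanded leaf than in leaf primordium (−6.48, SE 0.18, adjusted p = 1.3e-14 by limma). Stamen minus leaf primordium was −0.17, with a 95% interval of −0.46 to 0.12, so any difference there was under 2-fold. Over stages 2 to 6 the means were 12.55, 12.48, 12.71, 12.55 and 12.46, a range of 0.25 (adjusted p of the F test 0.89 by limma).

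Only 1 of the 3 probe sets of EXPA7 carried that pattern. The second averaged between 5.80 and 6.08 in all 7 groups. The third averaged between 4.12 and 5.57 and differed among arrays of 1 group, with 4.11, 6.75 and 4.05 at stage 5. With the mean of the 3 probe sets in place of the brightest, stamen minus expanded leaf was 2.35 (adjusted p = 2.34e-07 by limma) and expanded leaf minus leaf primordium −2.29 (adjusted p = 1.11e-05 by limma), both still called. EXPB17 has 2 probe sets, of which the second averaged between 4.08 and 4.69 in the 7 groups, with none of the pattern of the first. The 2 probe sets of EXLA2 gave the same calls when averaged.

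**Figure D3:**
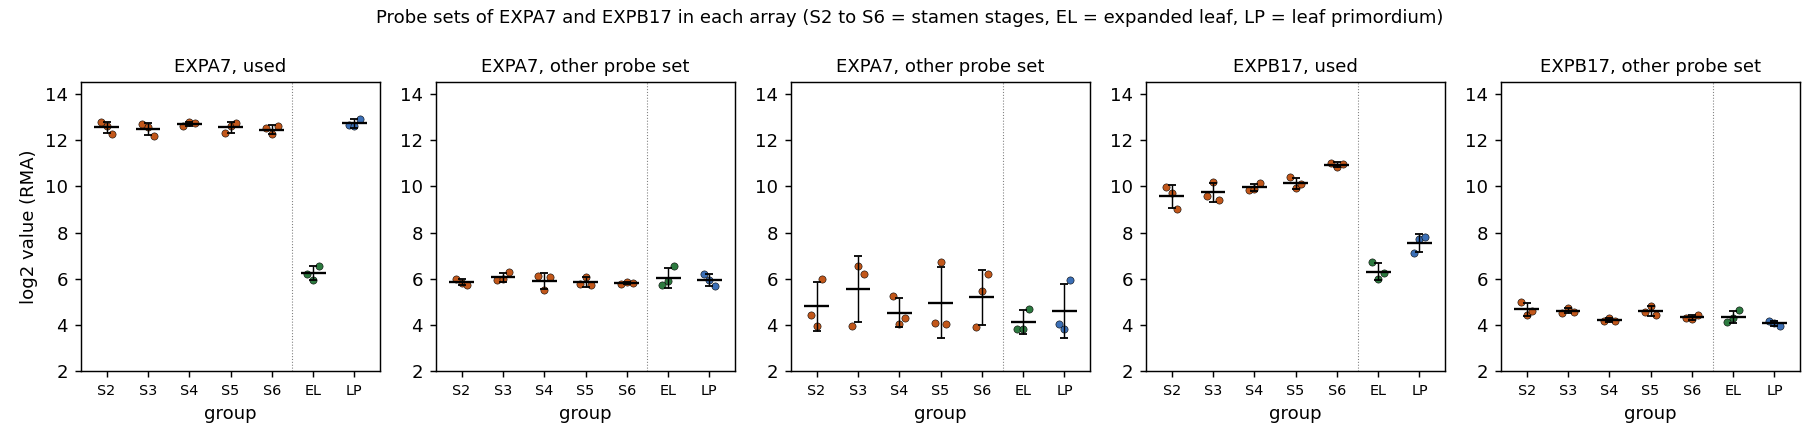
Log2 values of the 3 probe sets of EXPA7 and the 2 of EXPB17 in each of the 21 arrays (points), with group means and SD (n = 3), for stamen stages 2 to 6 (S2 to S6), expanded leaf (EL) and leaf primordium (LP). The probe set used for each gene varies between groups, and the group means of the others lie between 4.08 and 6.08.

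EXPA5, another alpha-expansin, was lowest in expanded leaf too, and was also higher in stamens than in leaf primordium. It read between 11.09 and 12.31 in the stamen arrays with a median of 11.66, 5.29, 5.10 and 5.52 in expanded leaf, and 10.15, 10.62 and 10.93 in leaf primordium. None of the 3 sets of arrays overlapped. Stamens were 82.4-fold above expanded leaf (6.36, SE 0.22, adjusted p = 8.83e-14 by limma) and expanded leaf 38.3-fold below leaf primordium (−5.26, SE 0.28, adjusted p = 8.06e-11 by limma). The 2.15-fold difference between stamens and leaf primordium (1.10, SE 0.22, adjusted p = 0.000668 by limma) stood close to the 2-fold limit. It was 0.90 without leaf primordium replicate 1 and 0.94 with the 3′ minus 5′ difference as a covariate, under 2-fold in both.

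EXPA16 was the alpha-expansin with the largest rise in stamens against leaf primordium. Stamen arrays read 8.70 to 10.15 with a median of 9.44, expanded leaf arrays 4.24, 4.49 and 4.61, and leaf primordium arrays 7.61, 7.48 and 7.95. No array of 1 organ overlapped with those of another. EXPA16 was 3.52-fold higher in stamens than in leaf primordium (1.82, SE 0.16, adjusted p = 7.13e-08 by limma) and higher than in expanded leaf (5.05, SE 0.16, adjusted p = 2.68e-14 by limma). Expanded leaf was below leaf primordium (−3.24, SE 0.21, adjusted p = 7.55e-10 by limma). Its means at stages 2 to 6 were 9.10, 9.18, 9.64, 9.88 and 9.68, a range of 0.78 with an adjusted p of 0.0478 by limma's F test, under the 2-fold range needed for a call.

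**Figure D4:**
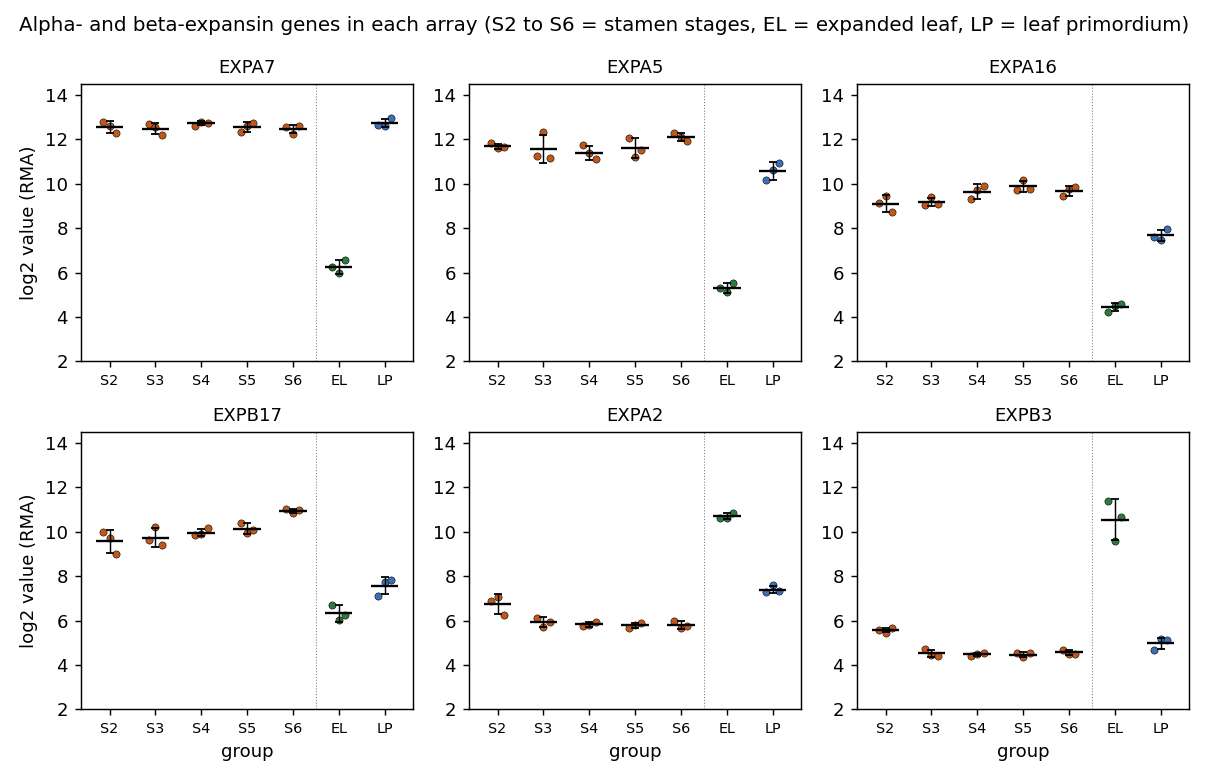
Log2 values of EXPA7, EXPA5, EXPA16, EXPB17, EXPA2 and EXPB3 in each of the 21 arrays (points), with group means and SD (n = 3), for stamen stages 2 to 6 (S2 to S6), expanded leaf (EL) and leaf primordium (LP). EXPA7, EXPA5, EXPA16 and EXPB17 are lowest in expanded leaf, and EXPA2 and EXPB3 are highest there.

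EXPA6, EXPA10 and EXPA29 had the same order of leaf samples with smaller differences. EXPA6 read 6.87 to 8.38 in stamens (median 7.66), 6.36, 6.68 and 6.09 in expanded leaf, and 8.70, 8.80 and 8.88 in leaf primordium. Its stamen arrays thus lay between those of the leaf samples, 2.32-fold above expanded leaf (1.22, SE 0.20, adjusted p = 5.73e-05 by limma) and 2.3-fold below leaf primordium (−1.20, SE 0.20, adjusted p = 0.000111 by limma). EXPA10 read 7.94 to 8.52 in stamens (median 8.21), 6.11, 7.50 and 7.37 in expanded leaf, and 8.73, 8.83 and 8.81 in leaf primordium. It was 2.36-fold higher in stamens than in expanded leaf (1.24, SE 0.19, adjusted p = 2.87e-05 by limma), a difference of 0.80, under 2-fold, without expanded leaf replicate 1, the lowest of its group. EXPA10 was 3.47-fold lower in expanded leaf than in leaf primordium (−1.80, SE 0.24, adjusted p = 1.08e-05 by limma), while stamen minus leaf primordium was −0.56, under 2-fold.

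EXPA29 had the widest spread over the stamen arrays of the alpha-expansins. Its stamen arrays ran from 5.60 to 8.46 with a median of 6.99, expanded leaf read 4.99, 5.10 and 4.36, and leaf primordium 8.11, 7.54 and 6.50. The stamen and leaf primordium arrays overlapped, and all of them lay above expanded leaf. Stamens were above expanded leaf (2.27, SE 0.40, adjusted p = 0.000144 by limma), and expanded leaf was below leaf primordium (−2.57, SE 0.52, adjusted p = 0.000692 by limma). Stage 3 replicate 2 read 8.44, against 5.60 and 6.33 in the other stage 3 arrays. The same array was the highest of stage 3 for EXPA5 (12.31 against 11.22 and 11.17), EXPA6 (7.98 against 7.12 and 6.87) and the beta-expansin EXPB11 (5.97 against 5.04 and 5.00), and the lowest for EXLA2 (10.43 against 11.46 and 11.67). Without it, limma's F test over the stages also called EXPA29 (range 2.05, adjusted p = 0.00974) and EXPA6 (range 1.14, adjusted p = 0.0236), and EXPA29 was called in stage 6 minus stage 2 (1.19, adjusted p = 0.0248), as it was with only the groups compared in the fit (1.19, adjusted p = 0.00742). With all 21 arrays those adjusted p-values were 0.302, 0.188 and 0.148 by limma.

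EXPA2 was the 1 alpha-expansin called higher in expanded leaf. Its stamen arrays read 5.65 to 7.08 with a median of 5.88, its expanded leaf arrays 10.61, 10.62 and 10.86, and its leaf primordium arrays 7.27, 7.58 and 7.33. The 3 sets of arrays did not overlap. EXPA2 was 25.6-fold lower in stamens than in expanded leaf (−4.68, SE 0.14, adjusted p = 9.19e-15 by limma) and 2.6-fold lower than in leaf primordium (−1.38, SE 0.14, adjusted p = 3.14e-07 by limma). Expanded leaf was 9.86-fold above leaf primordium (3.30, SE 0.17, adjusted p = 6.87e-11 by limma). Within the stamen series its means at stages 2 to 6 were 6.74, 5.93, 5.83, 5.79 and 5.80. The stage 6 minus stage 2 difference of −0.93 (SE 0.17, adjusted p = 0.00137 by limma) passed the test but stayed under 2-fold.

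EXPB17 was the beta-expansin most raised in stamens, going by its brighter probe set. Its stamen arrays read 9.99, 9.70 and 9.01 (stage 2), 9.60, 10.20 and 9.41 (stage 3), 9.83, 9.90 and 10.15 (stage 4), 10.39, 9.93 and 10.10 (stage 5), and 11.01, 10.84 and 10.98 (stage 6). Expanded leaf read 6.72, 6.01 and 6.24, and leaf primordium 7.12, 7.72 and 7.83. All 15 stamen arrays were above all leaf arrays, and the stage 6 arrays were above all those of the earlier stages. EXPB17 was 13.5-fold higher in stamens than in expanded leaf (3.75, SE 0.20, adjusted p = 4e-11 by limma) and 5.71-fold higher than in leaf primordium (2.51, SE 0.20, adjusted p = 2.29e-08 by limma). It was the 1 member called higher at stage 6 than at stage 2, by 2.6-fold (1.38, SE 0.26, adjusted p = 0.00144 by limma). With both probe sets averaged that difference was 0.51 and the one between expanded leaf and leaf primordium −0.48 in place of −1.24 (SE 0.26, adjusted p = 0.000945 by limma), under 2-fold in both, while stamens were still called higher than each leaf sample, by 1.94 and 1.47.

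EXPB3 was the family member with the largest difference in favour of expanded leaf. Its stamen arrays read 5.58, 5.46 and 5.67 at stage 2 and lay between 4.36 and 4.71 from stage 3 on. Its expanded leaf arrays read 11.37, 9.56 and 10.68, against 4.70, 5.15 and 5.10 in leaf primordium. The expanded leaf arrays lay far above all others, and the stage 2 arrays lay above those of every later stage. EXPB3 was lower in stamens than in expanded leaf (−5.81, SE 0.22, adjusted p = 3.26e-13 by limma) and higher in expanded leaf than in leaf primordium (5.55, SE 0.28, adjusted p = 4.3e-11 by limma). The SD of its arrays was 0.91 in expanded leaf and at most 0.25 in any other group. Both SEs pool these spreads and so understate that of expanded leaf. Stamen minus leaf primordium was −0.26 with a 95% interval of −0.73 to 0.20.

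In the annotation's gene order EXPB6, EXPB2, EXPB3 and EXPB4 follow each other with 0 genes between them, and EXPB6 and EXPB2 were measured beside EXPB3. Stamen minus expanded leaf was under 2-fold for both, −0.83 for EXPB2 (adjusted p = 0.00178 by limma) and −0.90 for EXPB6 (adjusted p = 0.000582 by limma), with no overlap of arrays, and the difference from EXPB3 was not tested. Without expanded leaf replicate 1, EXPB6 was called at −1.16 (adjusted p = 7.79e-05 by limma). EXPB2 read 6.03 to 6.48 in stamens (median 6.24), 6.62, 7.99 and 6.62 in expanded leaf, and 6.58, 6.27 and 6.33 in leaf primordium. Expanded leaf was above leaf primordium by 0.68 (SE 0.25, adjusted p = 0.0417 by limma), under 2-fold. EXPB6 read 3.77 to 4.49 in stamens (median 4.17), 4.57, 5.03 and 5.71 in expanded leaf, and 4.81, 5.59 and 5.58 in leaf primordium. It was called lower in stamens than in leaf primordium (−1.12, SE 0.18, adjusted p = 0.000111 by limma), a value under 2-fold once replicate 2 or replicate 3 of leaf primordium was left out.

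EXPB7 and EXPB8 lie with 1 gene between them and differed in the leaf samples. EXPB7 read 6.08 to 7.82 in stamens (median 7.0), 4.69, 6.24 and 5.65 in expanded leaf, and 7.97, 7.88 and 7.89 in leaf primordium. Expanded leaf was 5.23-fold below leaf primordium (−2.39, SE 0.31, adjusted p = 7.56e-06 by limma). Stamens were 2.59-fold above expanded leaf (1.37, SE 0.24, adjusted p = 0.00014 by limma), with overlapping arrays, and 0.95 without expanded leaf replicate 1. The −1.01 between stamens and leaf primordium (SE 0.24, adjusted p = 0.0034 by limma) sat at the 2-fold limit and fell under it when any of 6 single arrays was left out or when stage 2 was left out of the mean (−0.91). EXPB8 read 5.65 to 6.12 in stamens (median 6.00), 6.54, 6.15 and 6.00 in expanded leaf, and 6.65, 6.52 and 6.37 in leaf primordium, and stamen minus leaf primordium was −0.55 (adjusted p = 0.000461 by limma), under 2-fold.

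For EXPB11, 1 array stood far above the rest. Its stamen arrays read 4.73 to 6.68 with a median of 5.39, its expanded leaf arrays 6.41, 5.08 and 8.51, and its leaf primordium arrays 4.86, 4.45 and 4.97. It was called higher in expanded leaf than in leaf primordium (1.91, SE 0.55, adjusted p = 0.0112 by limma) and lower in stamens than in expanded leaf (−1.19, SE 0.43, adjusted p = 0.0298 by limma). Without expanded leaf replicate 3, the array with the higher floral marker mean and the large 3′ minus 5′ difference, those values were 0.99 and −0.27 and neither was called. With only the groups compared in the fit the first was not called either (1.91, adjusted p = 0.179 by limma). The second was also lost without expanded leaf replicate 1 (adjusted p = 0.0543 by limma) and with stage 2 left out of the mean (−1.17, adjusted p = 0.0517 by limma). With the 3′ minus 5′ difference as a covariate over all 21 arrays, they were 1.12 and −1.04, both still called (adjusted p = 0.0345 and 0.00506 by limma). The part of the floral markers in these values was not tested.

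The 4 EXLA genes, none of which is placed among the alpha- or beta-expansins, were each called in at least 1 comparison. EXLA1 was the family member that changed most over stamen development. It read 10.17, 10.37 and 10.50 (stage 2), 8.89, 7.96 and 8.42 (stage 3), 7.74, 8.79 and 8.61 (stage 4), 6.86, 7.54 and 7.83 (stage 5), and 6.19, 6.45 and 6.81 (stage 6). Expanded leaf read 11.65, 11.79 and 11.63, and leaf primordium 11.01, 11.20 and 10.42. The stage 2 arrays were above all later ones, the stage 6 arrays below all earlier ones, and neighbouring stages between them overlapped. EXLA1 was 14.6-fold lower at stage 6 than at stage 2 (−3.87, SE 0.30, adjusted p = 6.07e-07 by limma), and 3.79-fold lower at stage 3 than at stage 2 (−1.92, SE 0.30, adjusted p = 0.00224 by limma). Stage 2 had the larger 3′ minus 5′ differences, and with that difference as a covariate the 2 values were −4.07 and −2.06, still called (adjusted p = 0.000249 and 0.0301 by limma).

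**Figure D5:**
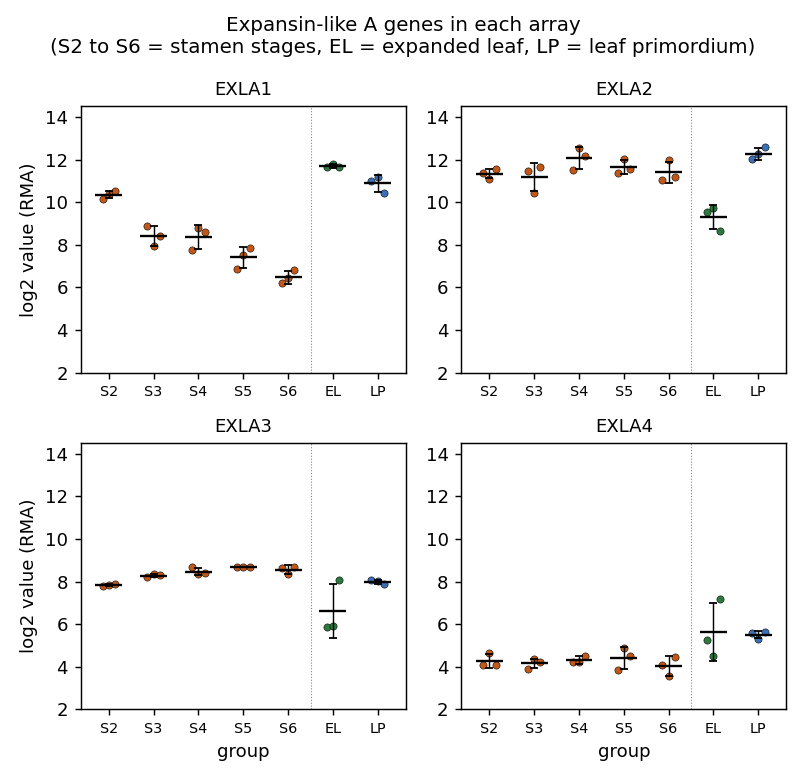
Log2 values of EXLA1, EXLA2, EXLA3 and EXLA4 in each of the 21 arrays (points), with group means and SD (n = 3), for stamen stages 2 to 6 (S2 to S6), expanded leaf (EL) and leaf primordium (LP). EXLA1 has a mean of 10.35 at stage 2 and 6.48 at stage 6, and for EXLA3 and EXLA4 1 expanded leaf array lies far above the other 2.

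Against the leaf samples, EXLA1 was 11.2-fold lower in the mean of the stamen stages than in expanded leaf (−3.48, SE 0.23, adjusted p = 7.68e-10 by limma) and 6.36-fold lower than in leaf primordium (−2.67, SE 0.23, adjusted p = 6.56e-08 by limma). Stage 2 and leaf primordium arrays overlapped, so the size of that difference depends on which stages enter the mean. EXLA2 had the other direction: it read 10.43 to 12.56 in stamens (median 11.51), 9.53, 9.75 and 8.67 in expanded leaf, and 12.00, 12.28 and 12.57 in leaf primordium. Its expanded leaf arrays were below all others, 4.64-fold below stamens (2.21, SE 0.28, adjusted p = 2.72e-06 by limma) and 7.83-fold below leaf primordium (−2.97, SE 0.36, adjusted p = 2.51e-06 by limma).

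EXLA3 and EXLA4 were again read differently by expanded leaf replicate 3. EXLA3 read 7.79 to 8.70 in stamens (median 8.36), 5.89, 5.91 and 8.06 in expanded leaf, and 8.06, 8.04 and 7.87 in leaf primordium. It was called higher in stamens than in expanded leaf (1.75, SE 0.28, adjusted p = 5.5e-05 by limma) and lower in expanded leaf than in leaf primordium (−1.37, SE 0.37, adjusted p = 0.00636 by limma). Without replicate 3 these were 2.47 and −2.09, larger and still called, but with only the groups compared in the fit the second was not called (−1.37, adjusted p = 0.18 by limma). EXLA4 read 3.55 to 4.89 in stamens (median 4.22), 5.25, 4.48 and 7.16 in expanded leaf, and 5.60, 5.32 and 5.61 in leaf primordium. It was called lower in stamens than in leaf primordium (−1.27, SE 0.36, adjusted p = 0.0103 by limma) and than in expanded leaf (−1.39, SE 0.36, adjusted p = 0.00357 by limma), and the second was −0.62 without replicate 3.

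Over the 5 stamen stages, limma's F test with a range of stage means of at least 2-fold called EXLA1, EXPB17 and EXPB3. These were 3 of 28 members, near the background of 7.23% of all probe sets and 10.7% of genes. The adjusted p-values were 5.27e-06 for EXLA1, 0.0108 for EXPB17 and 0.0449 for EXPB3. The range for EXPB17 was 1.38, and its call was lost with the 3′ minus 5′ covariate (range 1.54, adjusted p = 0.0732), without stage 6 replicate 1 (1.34, adjusted p = 0.0505) or replicate 3 (1.36, adjusted p = 0.0526), and with both probe sets averaged (0.55, adjusted p = 0.0951), all by limma. Stage 6 minus stage 2 was still called with the covariate (1.54, adjusted p = 0.0355 by limma). The EXPB3 call was lost when any of 17 single arrays was left out. EXPA2 and EXPA16 also had an adjusted p under 0.05, with ranges of 0.95 and 0.78. None of the 14 EXPA genes was called. The median range of stage means was 0.25 for EXPA, 0.36 for EXPB and 0.87 for EXLA, beside 0.32 over all probe sets and 0.52 over genes. Markers moved over the same stages: the tapetum gene CYP703A3 averaged 3.03 at stage 2 and 6.20 at stage 6 (adjusted p of the F test 3.88e-07 by limma), and CP1 5.27 and 4.22 (0.000104). The green-leaf marker RBCS averaged 9.51 at stage 2 and 8.10 at stage 6 (0.00779), and CAB2R averaged 9.24 at stage 2 and 6.28 at stage 3, with no call (0.0575). The part of these markers in the values of EXPB17, EXLA1, EXPB3 and EXPA2 was not tested.

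Between stage 6 and stage 2, EXPB17 was called higher and EXLA1 and EXPB3 lower, where 4.4% of all probe sets were called higher and 3.47% lower. The EXPB3 difference of −1.0 (SE 0.28, adjusted p = 0.0219 by limma) stood at the 2-fold limit. Leaving out any of 4 single arrays or centring each array on the median (−0.97) ended that call, and with the covariate its adjusted p was 0.242. Between stages 3 and 2, EXLA1 was the 1 member called, where 0.824% of all probe sets were called higher and 0.721% lower. No member was called between stages 4 and 3, 5 and 4 or 6 and 5 by limma, where 2, 1 and 2 members had an unadjusted p under 0.05. The share of all probe sets at that unadjusted limit was not counted. Few probe sets of any kind were called by the rule between these stages: 0.00524% higher and 0.00175% lower for stage 4 against 3, 0.0367% and 0.00699% for stage 5 against 4, and 0% in each direction for stage 6 against 5.

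The other 12 members, 7 EXPA and 5 EXPB, were called in no comparison. For 7 of them, EXPA3, EXPA4, EXPA8, EXPA31, EXPA32, EXPB9 and EXPB18, no group mean reached 5, single arrays lay between 2.75 and 5.05, and group means differed by at most 0.41. At such values a fall or a small change in these genes was not detectable here. They include EXPB9, a member of the pollen allergen branch of the beta-expansins. EXPB10, of the same branch, read 4.87 to 5.36 in stamens with a median of 5.08, 5.12, 5.08 and 4.95 in expanded leaf, and 5.26, 5.11 and 5.10 in leaf primordium. EXPA26 read 6.12 to 6.69 in stamens (median 6.32), 6.72, 6.65 and 6.73 in expanded leaf, and 6.48, 6.42 and 6.51 in leaf primordium, with stamen minus expanded leaf at −0.37 (adjusted p = 0.00185 by limma), under 2-fold. EXPA1 had the widest range of group means among these genes, 1.11, with means of 5.00 at stage 6 and 6.11 in expanded leaf, and its differences in the 3 organ comparisons were under 2-fold.

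Other genes of wall growth were counted in the same comparisons. Of all genes, 26% were called higher and 19.5% lower in stamens than in expanded leaf, with a median difference of 0.10. For expanded leaf against leaf primordium the shares were 19.4% and 24.4%, with a median of −0.07. For stamens against leaf primordium they were 15.1% and 12.2%. The counts of the lists below were not tested against these shares. The 9 cellulose synthase genes (CESA), which make the fibrils that expansins act on, had 5 called higher and 0 lower in stamens than in expanded leaf, and 0 higher and 4 lower in expanded leaf than in leaf primordium, with median differences of 1.63 and −0.60. CESA6 had the largest rise in stamens (3.92, SE 0.57, adjusted p = 1.53e-05 by limma), and its expanded leaf arrays were spread over 8.44, 6.22 and 11.08. The expanded leaf arrays of CESA1 (9.10, 5.94 and 11.06) and CESA5 (7.73, 5.71 and 10.17) were spread as well. For CESA1, replicate 3 lay above the leaf primordium arrays (10.61, 10.79 and 11.02). Of 11 endo-1,4-beta-glucanase genes (GLU), which cut wall glucans, 4 were called higher and 1 lower in stamens than in expanded leaf, and 1 higher and 3 lower in expanded leaf than in leaf primordium, with median differences of −0.19 and −0.13. GLU8 was highest in stamens, like EXPA16, with stamens above expanded leaf (6.13, adjusted p = 1.39e-11 by limma) and 2.93-fold above leaf primordium (1.55, adjusted p = 0.000628 by limma). GLU11 was lower in stamens than in expanded leaf (−3.50, adjusted p = 9.8e-08 by limma) and higher in expanded leaf than in leaf primordium (4.22, adjusted p = 3.63e-07 by limma), as were EXPA2 and EXPB3.

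The 10 plasma membrane aquaporin genes (PIP), which let water into cells, had 1 called higher and 5 lower in stamens than in expanded leaf, and 5 higher and 0 lower in expanded leaf than in leaf primordium, with median differences of −1.08 and 1.46. PIP2;2 was lower in stamens than in expanded leaf (−6.58, SE 0.46, adjusted p = 1.5e-09 by limma), and PIP2;6 was 3.22-fold higher (1.69, SE 0.27, adjusted p = 4.89e-05 by limma). Against leaf primordium, stamens had 1 CESA, 2 GLU and 2 PIP genes called higher and 0 lower. Of 4 mixed-linkage glucan synthase genes (CSLF), 1 was called in all, CslF8, higher in stamens than in expanded leaf (1.33, adjusted p = 7.13e-06 by limma). XTH8, the 1 xyloglucan endotransglucosylase gene measured, was not called. Between stage 6 and stage 2, GLU14 (2.72), GLU2 (1.65) and CESA2 (1.23) were called higher and PIP1;2 (−2.08) lower, where 5.67% of genes were called higher and 6.08% lower. Limma's F test over the stages called GLU14 (adjusted p = 0.00809) and PIP1;2 (0.0444), but not GLU2 (0.182) or CESA2 (0.0874).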

How the data were processed

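Stamens of stages 2 to 6 and 2 leaf samples of rice were measured on 21 arrays, 3 per group, labelled as biological replicates. The deposited values are on a log2 scale, 1 per probe set and array, and come from RMA, per the submitters' processing notes. The sources used here name no version of RMA. RMA sets all arrays to 1 distribution, so a shift shared by most probe sets would not be seen. Array medians lay between 5.82 and 5.89, and no arrays were identical. The number of arrays limits the precision.

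Of 57381 probe sets, 123 controls were left out and 57258 tested. The platform annotation gave 1 gene for 22436 of these, several for 95 and none for 34727. RefSeq of assembly ASM3414082v1 served for symbols and gene order, with no coordinates printed. A gene was represented by its probe set with the highest mean over 21 arrays. Probe sequences were not used here, so signal shared between close relatives cannot be told apart.

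One limma model (limma 3.58.1, R 4.3.3) with 7 group means was fitted to all arrays, and checked on simulated data. All tests were two-sided. Values per array are given for members called in a comparison, up to 6 largest rises and 6 largest falls each, and for the 3 brightest uncalled members (EXPA26, EXPB2 and EXPB8), while EXPA1 and EXPB10 were added after their values were seen. The members, companion lists and tests were chosen with earlier results of these data known. Lists of pectin methylesterases and proton pumps were sought by symbol, and 0 genes matched. Alternatives were array centring, a filter on dim probe sets, trend and robust variance, a replicate block, only the groups compared, a 3′ minus 5′ covariate, no fold limit, averaged probe sets, each array left out, and, chosen after seeing the data, the stamen mean without stage 2.

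Same-numbered arrays of different groups did not deviate together: over 63 pairs the correlation of their deviations ran between −0.43 and 0.48 with a median of 0.02, and over 126 pairs of other numbers the median was −0.01.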

Additional observations from a re-analysis of the deposited data

How the results depend on the processing

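For the 16 called members 4188 values were recomputed, and none that was called before or after changed direction. Uncalled values could change it, such as EXPA7 in stamen minus leaf primordium (−0.17, and 0.06 with averaged probe sets). Leaving out 1 array lost 38 calls and gained 13, and the other settings lost 12 and gained 14. Leaving out each array in turn gave 7 to 9 members called for stamen minus leaf primordium (9 with all arrays), 14 to 16 for stamen minus expanded leaf (15), 12 to 14 for expanded leaf minus leaf primordium (13), 1 to 2 for stage 3 minus stage 2 (1), 2 to 4 for stage 6 minus stage 2 (3), 1 to 4 for the F test over the stages (3), and 0 for the other stage pairs. The F test called 1 member, EXLA1, without stage 6 replicate 3. For stage 3 minus stage 2 the second member was EXPB3 without any of the 3 expanded leaf arrays (−1.05, adjusted p by limma of 0.00169 to 0.0471) and EXPA2 without stage 2 replicate 3 (−1.05, adjusted p = 0.00177 by limma). Expanded leaf arrays enter a stage comparison only through the pooled spread and the p adjustment, and the EXPB3 difference was −1.05 with them too. The EXLA3 range over the stages was 0.85 with and without expanded leaf replicate 3. Its adjusted p by limma's F test was 0.541 with that array and 0.000278 without it. With only the groups compared in the fit, 2 members were called for stage 3 minus stage 2, EXLA1 and EXPB3. With no fold limit, 2 were called there and 5 by the F test, which adds EXPA2 and EXPA16, and the lower calls for stamen minus expanded leaf numbered 10 in place of 5. The filter on dim probe sets left 15 of 28 members, with 7, 12 and 11 called in the 3 organ comparisons. Stamen means of stages 3 to 6 gave 8 and 14 called against leaf primordium and expanded leaf. Shares of all probe sets were not counted at the alternative settings, so the member counts at those settings have no background to be set beside. With the 3′ minus 5′ covariate, EXPB11 (2.84, adjusted p = 0.00646) and EXLA3 (2.07, adjusted p = 0.00407) were also called higher at stage 6 than at stage 2 by limma. Without it, the means at stages 2 and 6 were 5.40 and 6.17 for EXPB11 and 7.84 and 8.56 for EXLA3, with no call. The slope of the covariate comes from differences within groups, widest in expanded leaf (3.37 in replicate 3 against 1.73 and 1.96). That replicate also read highest of its group for both genes. Whether the slope holds for stage 2 was not tested, here or for the other values with this covariate. With the replicate block, 9, 15 and 13 members were called in the organ comparisons, 1 for stage 3 minus stage 2, 3 for stage 6 minus stage 2 and 3 by the F test, and no call changed; the arrays share only a number. Apart from the stage calls that moved with expanded leaf arrays, the causes of these shifts were not tested. For the 7 members with no group mean of 5, a fall or a small change was not detectable here.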
